A study of Macaca mulatta with 304 samples.

Results

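Whole-blood RNA levels of 10 genes were followed in irradiated rhesus macaques (Macaca mulatta). They are the calgranulin genes S100A8, S100A9 and S100A12 and 7 genes of mature neutrophils, CSF3R, FPR1, FPR2, MMP25, PADI4, CXCR1 and CXCR2. The genes were selected by symbol, and each of the 10 was present among the 21070 genes of the count table. A gene was tested if it had 3 or more counts in no fewer than 80% of samples. This left 13751 genes, and all 10 genes were among them.

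Calgranulins are small calcium-binding proteins that fill the cytosol of neutrophils and are also made by monocytes. S100A8 and S100A9 pair to form calprotectin, which withholds metal ions from microbes and, once released, is recognised by TLR4 and by AGER, the receptor RAGE. S100A12, calgranulin C, is a ligand of the same receptors. The other genes act on the path of a neutrophil from marrow to tissue. CSF3R is the receptor of G-CSF, which drives neutrophil production and release. CXCR1 and CXCR2 bind CXCL8 and related chemokines, and FPR1 and FPR2 sense formylated peptides from bacteria and damaged mitochondria. MMP25 is a protease anchored in the neutrophil membrane, and PADI4 converts arginine of histones to citrulline during the release of neutrophil extracellular traps. In whole blood, fewer or more cells of a type and less or more RNA per cell cannot be told apart.

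The animals were adults of the Chinese sub-strain. In the lower dose (LD) group 12 animals (6 females, 6 males) received 9.8 Gy of photons to the thorax, and in the higher dose (HD) group 16 animals (8 females, 8 males) received 10.7 Gy. The question was how blood RNA changed after exposure and whether it differed by dose, sex and time. Counts were available for 24 controls drawn 2 days before exposure (12 LD, 12 HD), 151 LD samples and 129 HD samples. Each animal was compared with its own control, which 4 HD animals lacked. All animals were sedated and given an antiemetic for irradiation, and all received tramadol or buprenorphine for some weeks afterwards. Dexamethasone, a glucocorticoid, was given to animals with rapid breathing, and the labels do not tell which animals or samples this concerns. Samples were grouped as early (Day 3 to 21), medium (after Day 21 to Day 90) and late (after Day 90) time points. Fewer animals were sampled on later days, and comparisons with control rested on 24 animals up to Day 40, then on 21 (Day 60), 15 (Day 90), 12 (Day 120), 9 (Day 150) and 6 (Day 180 and after).

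The genes lie on 4 chromosomes of the rhesus macaque assembly Mmul_10. S100A8 (chr1:97667429-97668469, plus strand), S100A12 (chr1:97682945-97683828, plus strand) and S100A9 (chr1:97696189-97699439, minus strand) sit within one short stretch of chromosome 1. CSF3R (chr1:188099188-188116045) and PADI4 (chr1:207393270-207446543) are elsewhere on chromosome 1. CXCR2 (chr12:105531913-105544328) and CXCR1 (chr12:105572569-105576733) are neighbours on chromosome 12, as are FPR1 (chr19:51493983-51500246) and FPR2 (chr19:51505245-51516083) on chromosome 19. MMP25 is on chromosome 20 (chr20:3117177-3131967), where it overlaps the pseudogene LOC106994931 on the opposite strand. Since the strand setting of the counting is not given in the sources used here, reads of that pseudogene may be among the MMP25 counts. Of all stretches of 50 bases in the transcripts, 1.25% in CXCR1 and 1.04% in CXCR2 also occur in the other gene or in LOC100429751, and 0.587% in PADI4 occur in PADI3. The other 7 genes share none with another gene.

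The promoters of the calgranulins and of CSF3R are shown because S100A8 and S100A9 moved together and CSF3R was the gene least like S100A12 and S100A8 over all samples. Each sequence holds the 250 bases before the annotated start in Mmul_10, read 5′ to 3′ on the strand of the gene. They are S100A8 (chr1:97667179-97667428, plus strand), S100A9 (chr1:97699440-97699689, minus strand), S100A12 (chr1:97682695-97682944, plus strand) and CSF3R (chr1:188098938-188099187, plus strand). Capitals mark the letters TTNNGNAA, a relaxed form of the C/EBP palindrome, and GAGGAA, a core bound by PU.1, on either strand.
S100A8: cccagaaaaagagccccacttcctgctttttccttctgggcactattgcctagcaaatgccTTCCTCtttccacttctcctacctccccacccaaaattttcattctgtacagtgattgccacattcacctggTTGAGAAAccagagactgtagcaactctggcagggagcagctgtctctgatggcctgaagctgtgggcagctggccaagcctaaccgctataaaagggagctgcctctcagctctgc
S100A9: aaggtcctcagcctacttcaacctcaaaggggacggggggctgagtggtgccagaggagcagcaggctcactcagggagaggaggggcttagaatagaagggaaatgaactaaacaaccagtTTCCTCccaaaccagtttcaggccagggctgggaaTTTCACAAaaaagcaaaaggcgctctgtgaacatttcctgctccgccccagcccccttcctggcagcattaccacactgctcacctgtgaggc
S100A12: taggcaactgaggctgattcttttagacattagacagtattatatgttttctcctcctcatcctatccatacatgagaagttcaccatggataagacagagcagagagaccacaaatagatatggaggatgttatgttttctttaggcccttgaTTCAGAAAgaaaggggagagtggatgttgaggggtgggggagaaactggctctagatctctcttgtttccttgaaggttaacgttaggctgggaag
CSF3R: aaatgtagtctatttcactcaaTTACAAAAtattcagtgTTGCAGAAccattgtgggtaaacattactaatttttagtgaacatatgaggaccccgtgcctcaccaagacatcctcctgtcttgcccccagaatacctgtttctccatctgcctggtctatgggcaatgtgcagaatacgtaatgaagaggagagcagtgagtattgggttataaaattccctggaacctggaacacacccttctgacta

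The exact palindrome TTGCGCAA, which is itself a case of TTNNGNAA, was in 0 of the 10 promoters and in 0.183% of 20787 promoters of the same length. TTNNGNAA was in 8 of the 10 promoters, against 31.7% of all promoters. GAGGAA was in 4 of the 10, S100A8, S100A9, FPR1 and FPR2, against 21.8% of all promoters. A match of letters is a description and does not show that a factor binds there.

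Depth ranged from 2840219 to 23638161 counts per sample, with a median of 8227563. Medium and late samples were shallower, with medians of 6905391 and 6935207 counts against 11697185.5 in controls. The library names end in a number, here called the library suffix, whose meaning is not stated and which fell into a low range, a high range and 0. The suffix was low in 20 controls and 0 in the other 4. At medium and late time points it was 0 in 76 and 46 samples and high in 19 and 7 samples. Only 4 of 24 animals had control and medium samples of one range, and 1 of 14 had control and late samples of one range, so the part of the suffix in changes from control could be examined only in some comparisons, which are named below. No pair of samples had identical counts. The samples of one animal are repeated draws, and animals were the replicates in every test.

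Before irradiation the 10 genes differed widely in level, here given as CPM (counts scaled to the library size) and, between genes, as CPM per kilobase of the longest transcript. On the per-kilobase scale the median control level was 492 for CSF3R, 349 for S100A9, 135.1 for MMP25, 113.7 for FPR1, 75.5 for S100A8, 71.0 for CXCR2, 69.4 for CXCR1 and 56.9 for PADI4. FPR2 (5.73) and S100A12 (3.21) were far lower. The order of S100A8, CXCR2, CXCR1 and PADI4 is not firm, since the spread between controls was larger than the gaps between these genes. Over all samples, later ones included, S100A12 had a median of 14 counts, with 22 samples under 3 counts and 6 at 0, none of the latter a control.

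Control animals also differed among themselves, and most for the calgranulins and FPR2. S100A8 ranged from 5.33 to 219.03 CPM over the 24 controls (median 37) and S100A9 from 61.1 to 1080 CPM (median 221.1). CSF3R ranged from 512 to 5016 CPM (median 1710), CXCR1 from 60.4 to 610 CPM (median 179) and CXCR2 from 72.6 to 619 CPM (median 278). On the log2 scale the SD over controls was 1.27 for S100A8, 1.11 for S100A12, 1.06 for FPR2 and 1.02 for S100A9, and 0.70 to 0.88 for the other 6 genes. The 4 controls of suffix 0 had a median of 13.3 CPM of S100A8, against 41.3 CPM in the 20 others, whereas for CSF3R the medians were 1780 and 1710 CPM. Whether the suffix has a part in this was not tested. The fixed markers of mature neutrophils, the cells that these genes stand for, were well expressed in controls, with a summed level of 2190 to 15000 CPM over 22 genes, 1 of which had a median of 0. Monocyte, T cell and B cell markers were present too, with median sums of 2400, 2610 and 1410 CPM.

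Related genes were also set side by side. On the per-kilobase scale S100A9 was higher than S100A8 in every sample, with a median ratio of 4.32 in controls, 3.81 at early, 4.02 at medium and 3.45 at late time points. CXCR2 and CXCR1 were close to equal, with median ratios of 0.929 in controls and 0.885 at late time points. FPR1 exceeded FPR2 in every sample, with a median ratio of 20.3 in controls and 11.2 at late time points. Over all samples, which share animals, libraries of 3 suffix ranges and changes of cell composition, Pearson's r of log2 CPM was 0.941 between CSF3R and CXCR2, 0.937 between CXCR1 and CXCR2 and 0.929 between S100A8 and S100A9. The least similar pairs were S100A12 with CSF3R (0.552) and S100A8 with CSF3R (0.622).

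**Figure D1:**
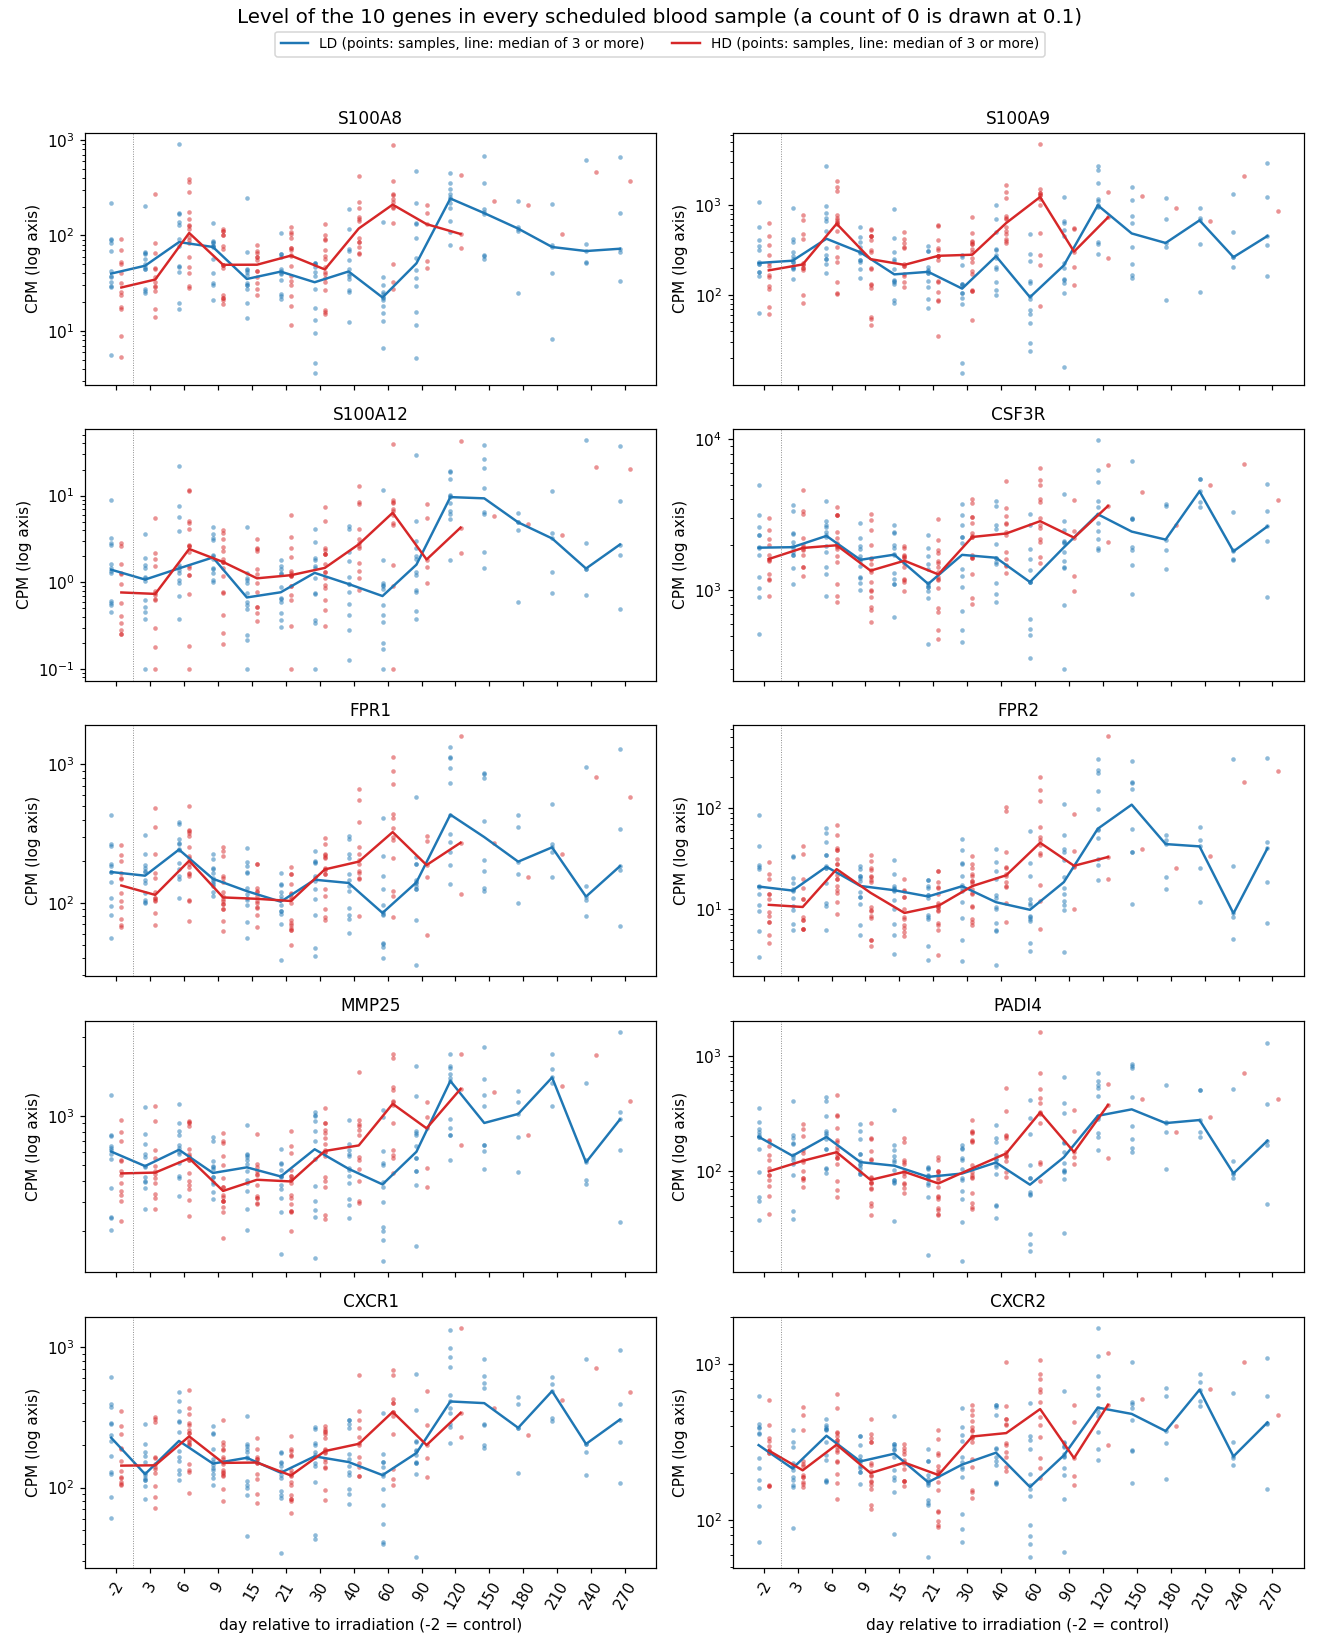
Level of each of the 10 genes (CPM, log axis) in every scheduled sample against the day relative to irradiation, with Day -2 as the control, LD in blue and HD in red. Points are samples and lines join medians of 3 or more samples; the HD line lies above the LD line on Day 60 and the LD line climbs between Day 90 and Day 120.

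In the first weeks the genes did not move as one. On each scheduled day the animals were compared with their own controls by edgeR, and a gene counted as called when its adjusted p did not exceed 0.05 and its fold reached 1.5. On Day 3 none of the 10 genes was called, against 11.5% of tested genes in either direction (3 had an unadjusted p below 0.05, and DESeq2 called 0). On Day 6 the calgranulins S100A8 and S100A9 and the formyl peptide receptor FPR2 rose, 3 of 10 genes, while 6.04% of all tested genes were called higher. S100A8 went from 5.33, 37 and 219.03 CPM (lowest, median and highest of 24 controls) to 16.8, 86.7 and 899 CPM on Day 6. It was higher in 19 of 24 animals, although the ranges overlap, with a log2 fold change of 1.31 (SE 0.34, adjusted p = 0.00244). S100A9 rose by 0.95 on the log2 scale (SE 0.25, adjusted p = 0.00284) and FPR2 by 0.72 (SE 0.20, adjusted p = 0.00481). Among the other 7 genes, S100A12 had a log2 fold change of 0.88 with an adjusted p of 0.0824 and FPR1 of 0.51, below the fold threshold. On Days 9 and 15 none was called, against 7.58% and 6.01% of tested genes in either direction (1 and 2 genes had an unadjusted p below 0.05, and DESeq2 called 0 on both days). In the LD animals alone 0 genes were called on Day 6 (0 had an unadjusted p below 0.05), against 4.99% of tested genes called higher, and in the HD animals alone 4 rose, against 7.23%. Tested directly, the HD change minus the LD change on Day 6 was called for 0 of the 10 genes (0 had an unadjusted p below 0.05). It was called for 0% of all tested genes. Markers of other cells moved on Day 6 too, with 8 of 8 B cell markers lower and 9 of 9 erythroid, 6 of 20 further mature neutrophil and 3 of 10 monocyte markers higher. Erythroid sums were 1670 to 11400 CPM in controls and 3600 to 82300 CPM in early samples, B cell sums 333 to 2530 and 191 to 1700 CPM, and no marker of these 2 lists had a median of 0. Their part in the rises was not tested. These comparisons, like the others with controls, share the same control samples.

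By Day 21 most of the receptors and PADI4 had dropped. CSF3R, FPR1, PADI4, CXCR1 and CXCR2 fell, 5 of 10 genes, while 2.73% of all tested genes were called lower. CXCR2 went from 72.6, 278 and 619 CPM in controls (lowest, median and highest) to 58.03, 174 and 378 CPM, and was lower in 19 of 24 animals. Its log2 fold change was -0.74 (SE 0.15, adjusted p = 0.000217). PADI4 was lower in 21 of 24 animals (log2 fold change -0.77, SE 0.14, adjusted p = 3.09e-05). FPR1 was also lower in 21 animals, and its log2 fold change was -0.62. FPR2 (-0.44) and MMP25 (-0.43) were past the adjusted p but below the fold threshold. The calgranulins were not called, with log2 fold changes of 0.29 for S100A8, -0.28 for S100A9 and -0.27 for S100A12. In LD animals alone 6 genes fell (S100A12, FPR1, FPR2, PADI4, CXCR1 and CXCR2, against 2.74% of tested genes), and in HD animals alone 3 (CSF3R, PADI4 and CXCR2, against 3.39%). The HD change minus the LD change on Day 21 was called for 0 of the 10 genes (1 had an unadjusted p below 0.05) and for 0% of all tested genes. In 1 fit over all samples with the suffix range as a covariate none of the 5 falls was called. In the 16 animals whose control and Day 21 samples were of one range, all 5 were called. In the same comparison 9 of 9 erythroid genes of the fixed list rose, as did 2 of 20 other mature neutrophil genes, and 7 of these 20 and 6 of 8 B cell markers fell. How far the erythroid rise lowers the share of neutrophil RNA was not tested.

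Summed over Day 3 to 21, S100A8 alone was called, against 5.79% of tested genes called higher. Its level was 5.33, 37 and 219.03 CPM in controls and 19.9, 57.4 and 219.1 CPM in the early samples (lowest, median and highest). It was higher in 18 of 24 animals, and its log2 fold change was 0.75 (SE 0.23, adjusted p = 0.00944). This call was lost without the block on animals, with the deposited log2 values in limma and in the 16 animals of one suffix range. In 6 of 24 animals all 10 genes were higher than in the control, and in 8 animals at most 2 were.

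**Figure D2:**
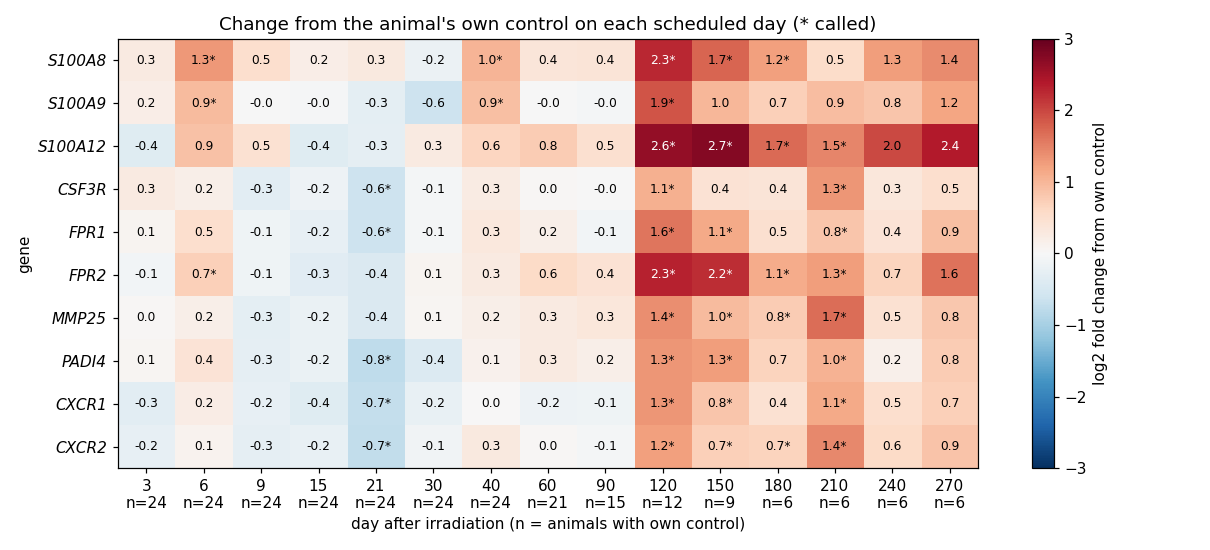
Log2 fold change of each gene from the animals' own controls on the 15 scheduled days (colour and printed value), with the number of animals below each day and an asterisk where the gene was called. Rises of S100A8 and S100A9 on Days 6 and 40, falls of 5 genes on Day 21 and rises of all 10 genes on Day 120 stand out; Days 240 and 270 have 6 animals and no call.

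At medium time points the 2 dose groups separated. Over the 24 animals together S100A8, S100A9, S100A12 and FPR2 rose, 4 of 10 genes against 4.48% of tested genes called higher. Their log2 fold changes were 0.97, 0.66, 0.88 and 0.69. The 4 calls were lost with the deposited log2 values in limma, and in the 4 animals of one suffix range, all HD, 6 genes were called. The share of all tested genes called in these 4 animals is not given here.

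In the 12 HD animals, 7 of 10 genes rose, against 7.61% of tested genes called higher. S100A8 went from 5.33, 28.5 and 91.6 CPM in HD controls (lowest, median and highest) to 56.8, 146.5 and 285 CPM, and was higher in 12 of 12 animals. Its log2 fold change was 2.12 (SE 0.35, adjusted p = 0.000205). S100A9 (1.70) and S100A12 (2.02) rose by similar log2 fold changes. Among the receptors FPR2 rose by 1.47, FPR1 by 0.91 and the enzymes PADI4 and MMP25 by 1.04 and 0.70. CSF3R, CXCR1 and CXCR2 were past the adjusted p but below the fold threshold, with log2 fold changes of 0.58, 0.55 and 0.50. Other markers moved in the same HD animals, with 14 of 20 further mature neutrophil and 5 of 10 monocyte markers higher and 7 of 11 T cell and 7 of 8 B cell markers lower. Mature neutrophil sums were 2470 to 6260 CPM in HD controls and 3250 to 16700 CPM at medium time points, and T cell sums 1810 to 3860 and 297 to 2740 CPM. No monocyte, T cell or B cell marker had a median of 0, and the part of these cells in the rises was not tested.

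In the 12 LD animals none of the 10 genes was called (4 had an unadjusted p below 0.05, and DESeq2 called 0), against 2.69% of tested genes called higher and 0.625% called lower. S100A8 was at 5.57, 39.8 and 219.03 CPM in LD controls and at 8.51, 42.1 and 230.9 CPM at medium time points. Log2 fold changes were between -0.43 (CXCR1) and 0.03 (MMP25). With the deposited log2 values S100A9 was called lower.

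The dose difference itself, that is the HD change minus the LD change, was called for 10 of 10 genes, against 2.77% of tested genes. The days summed were not alike, with 12 LD and 5 HD samples on Day 90 and HD samples alone on Days 71 and 77. Among the alternatives run was one on Days 30, 40 and 60 only, and 0 signs turned in any of them. How many genes were called on these 3 days alone is not given here. Over all days summed, the dose difference was 2.21 for S100A8 (SE 0.42, adjusted p = 0.00198), 2.19 for S100A12 and 2.002 for S100A9 on the log2 scale. Of the receptors and enzymes FPR2 differed by 1.53, PADI4 by 1.38, FPR1 by 1.14, CXCR1 by 0.97, CSF3R by 0.74, MMP25 by 0.68 and CXCR2 by 0.59 (SE 0.17, adjusted p = 0.0342). With controls of low suffix and medium samples of suffix 0 only, 9 of 10 genes were called, all but CXCR2. The share of all tested genes called in that alternative is not given here. At early time points none of the 10 genes differed by dose (0 had an unadjusted p below 0.05, and DESeq2 called 0), as 0% of all tested genes did, with differences of -0.10 to 0.81. The dose difference at medium time points was also called for 14 of 20 further mature neutrophil and 3 of 10 monocyte markers, and for 0 of 11 T cell and 0 of 8 B cell markers. Part of the fixed list of glucocorticoid-responsive genes moved with dose as well, 2 of 7 being called higher in HD at medium time points. The summed level of these 7 genes at medium time points was 923 to 4180 CPM in LD samples and 1000 to 8750 CPM in HD samples, and none had a median of 0. The part of dexamethasone in the dose difference was not tested.

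Dose was compared within the 9 days to Day 90, and among these each of the 10 genes had its largest dose difference on Day 60. Later days had at most 3 HD samples and were not tested for dose. On Day 40, S100A8 (log2 fold change 1.01) and S100A9 (0.91) rose over both doses together, 2 of 10 genes against 4.07% of tested genes. In HD animals alone 6 genes rose on Day 40, against 5.03% of tested genes, and in LD animals alone 0 were called (3 had an unadjusted p below 0.05, all lower), where 4.17% of tested genes were called higher. The dose difference on Day 40 was called for 0 genes by edgeR, where 8 genes had an unadjusted p below 0.05 and only 0.0291% of tested genes were called higher, for 2 genes with TMM scaling or without the filter (S100A8 and S100A9), and for 5 genes by DESeq2. On Day 30 none was called against control, while 5.9% of tested genes were (2 genes had an unadjusted p below 0.05, DESeq2 called 0). The dose difference on Day 30 was called for 0 of the 10 genes by edgeR (6 had an unadjusted p below 0.05) and for 0% of tested genes. It was 1.77 for S100A8 and 1.64 for S100A9 on the log2 scale. Mean log2 changes of these 2 genes were -1.08 and -1.43 in LD animals and 0.67 and 0.19 in HD animals.

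On Day 60 the LD and HD animals moved in opposite directions. Over both doses none of the 10 genes was called, against 4.23% of tested genes (0 had an unadjusted p below 0.05, DESeq2 called 0), and without the block on animals S100A8 and S100A12 were called higher. In the 12 LD animals S100A8, S100A9, CSF3R, FPR1, PADI4, CXCR1 and CXCR2 fell, 7 of 10 genes against 1.35% of tested genes. In the 9 HD animals with a control all 10 genes rose, against 10.3% of tested genes. The dose difference was called for 10 of 10 genes, against 10.5% of tested genes, and ranged on the log2 scale from 1.52 for CXCR2 (SE 0.24, adjusted p = 9.37e-05) to 3.60 for S100A8 (SE 0.59, adjusted p = 0.000106).

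S100A8 on Day 60 was at 6.56, 22.4 and 139 CPM (lowest, median and highest) in the 12 LD samples and at 27.4, 210 and 888 CPM in the 12 HD samples. It was below the own control in 11 of 12 LD animals (log2 fold change -1.02) and above it in 8 of 9 HD animals (2.59). S100A9 was at 23.9, 94.6 and 477 CPM in LD and at 75.5, 1229 and 4726 CPM in HD samples. It was lower in 12 of 12 LD animals (-1.41, SE 0.20) and higher in 9 of 9 HD animals (2.17, SE 0.43). S100A12 was at 0, 0.695 and 11.7 CPM in LD, where it was not called, and at 0, 6.34 and 39.4 CPM in HD samples.

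The formyl peptide and chemokine receptors followed the same split. FPR1 was at 40.3, 84.7 and 413 CPM in LD and at 78.7, 324.5 and 1122 CPM in HD samples on Day 60. It was lower in 12 of 12 LD animals (-0.71) and higher in 9 of 9 HD animals (1.40). CXCR1 changed by -1.65 to -0.35 in the LD animals and by -0.17 to 2.15 in the HD animals. FPR2, MMP25 and S100A12 were not called in LD animals, with log2 fold changes of -0.60, -0.43 and -0.92, and rose in HD animals by 2.13, 1.23 and 2.52. CSF3R, PADI4 and CXCR2 rose in HD animals by 0.98, 1.77 and 0.91 and fell in LD animals by 0.67, 0.83 and 0.62.

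The library suffix was then held alike between the doses, with controls of low suffix and Day 60 samples of suffix 0 only (8 LD and 7 HD animals). In these animals the dose difference was called for 10 genes, with 7 genes lower in LD and 10 higher in HD. The shares of all tested genes called in this subset are not given here. Each of these animals changed suffix between control and Day 60, so within a dose the change from control and the suffix cannot be told apart, and only 2 animals had control and Day 60 samples of one range. Without the block on animals the 7 falls in LD were not called, whereas the 10 rises in HD were. From Day 30 to Day 60 in the same animals, where controls play no part, 4 of 10 genes rose in the 12 HD animals (S100A8, S100A9, FPR2 and PADI4, against 3.04% of tested genes) and 0 changed in the 12 LD animals (3 had an unadjusted p below 0.05, DESeq2 called 0, and 2.79% of tested genes were called). The dose difference of this step was called for 5 genes (CSF3R, FPR1, FPR2, MMP25 and CXCR1, against 3.36% of tested genes), and for 0 in animals whose samples of both days shared a suffix range (8 LD, 12 HD), where 0 of all tested genes were called.

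**Figure D3:**
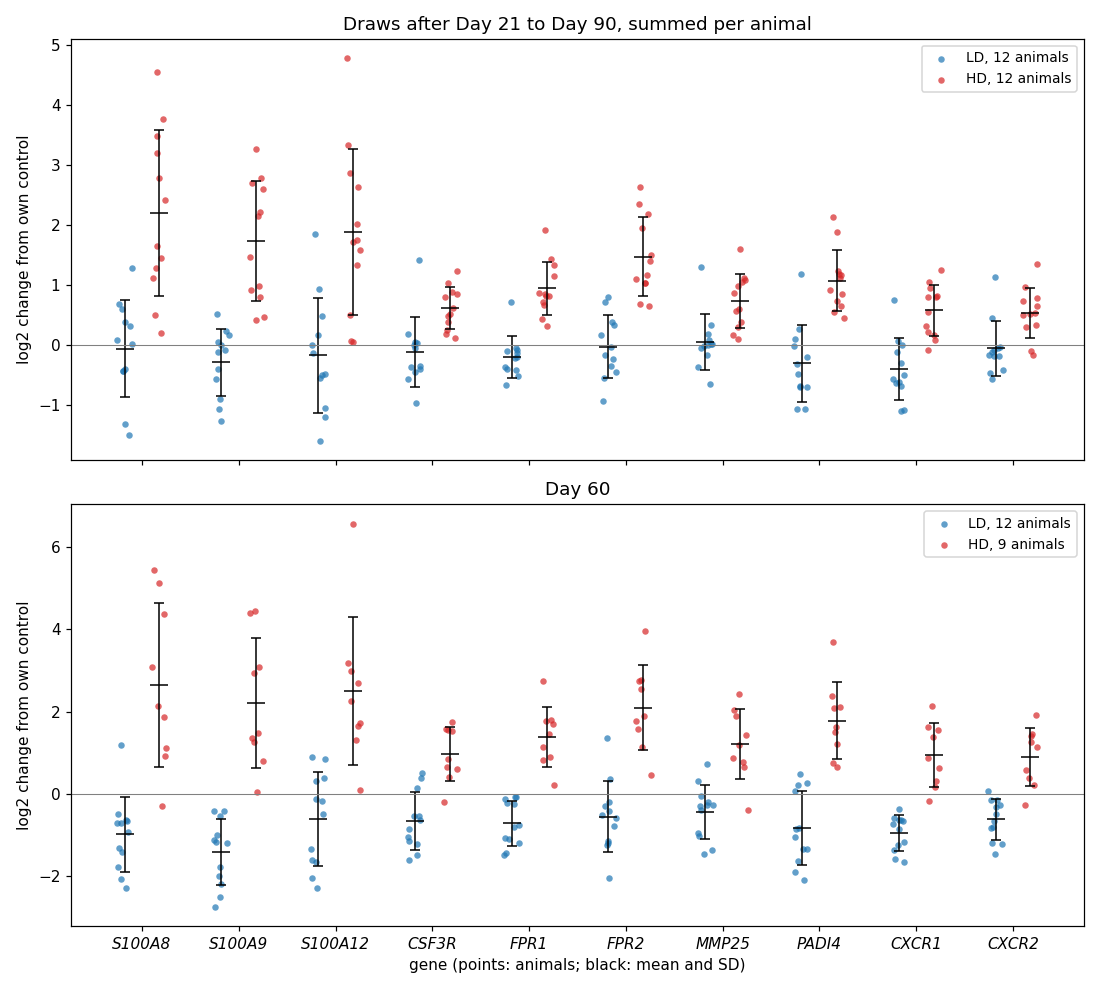
Log2 change of each gene from the animal's own control at medium time points (top) and on Day 60 (bottom), with LD animals in blue, HD animals in red, and black bars for the mean and SD. On Day 60 the LD animals lie mainly below 0 and the HD animals above it, with means of -0.71 and 1.40 for FPR1.

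Other genes of neutrophils moved with the 10 genes on Day 60. Of 20 further mature neutrophil genes, 16 rose in HD animals, 4 fell in LD animals and 19 were called higher for the dose difference. Of 13 granule genes of immature neutrophils, 8 rose in HD, 2 fell in LD and 9 differed by dose. Monocyte markers moved too, with 7 of 10 higher in HD, and T cell and B cell markers went the other way in HD, with 7 of 11 and 8 of 8 lower. For the dose difference on Day 60, 5 of 10 monocyte markers were called higher and 1 lower. It was called lower for 5 of 11 T cell and 6 of 8 B cell markers, against 12.6% of tested genes. The summed mature neutrophil level was 1530 to 12300 CPM in LD and 3520 to 16700 CPM in HD samples, and the monocyte sum 1490 to 4710 and 2140 to 6620 CPM. In controls the mature neutrophil sum was 2190, 5230 and 15000 CPM (lowest, median and highest) in LD and 2470, 3730 and 6260 CPM in HD. The part of this gap between controls in the dose difference was not tested. T cell sums were 1500 to 3420 CPM in LD and 742 to 2500 CPM in HD samples, and none of the monocyte or T cell markers had a median of 0. Of the glucocorticoid-responsive genes 3 of 7 rose in HD and 4 of 7 were called higher for the dose difference. The sums of these genes were 1000 to 6150 CPM in HD and 978 to 3600 CPM in LD samples. Their part in the changes of the 10 genes was not tested. On Day 90, when 12 LD and 3 HD animals had a control, none of the 10 genes was called against control, where 7.06% of tested genes were (1 had an unadjusted p below 0.05, DESeq2 called 0), or between doses (0 had an unadjusted p below 0.05, DESeq2 called 0), where 0% of tested genes were called.

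On Day 120 all 10 genes were high in LD animals too. With 12 animals that had a control (11 LD, 1 HD), 10 of 10 genes rose, against 12.7% of tested genes called higher. S100A8 went from 5.57, 38.8 and 92.2 CPM in the controls (lowest, median and highest) to 73.7, 230 and 450 CPM, and was higher in 12 of 12 animals. Its log2 fold change was 2.27 (SE 0.25, adjusted p = 1.57e-05). S100A12 rose by 2.63 and S100A9 by 1.89, each in 12 of 12 animals. FPR2 rose by 2.31 and FPR1 by 1.62 on the log2 scale, and the chemokine receptors CXCR1 and CXCR2 by 1.32 and 1.24. The smallest change was that of CSF3R, which went from 512, 1798 and 3155 CPM to 1849, 2996 and 9860 CPM (log2 fold change 1.07, SE 0.32, adjusted p = 0.0133) and was higher in 10 of 12 animals.

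Later days had fewer animals and fewer calls. On Day 150 (9 animals) 8 of 10 genes rose, all but S100A9 and CSF3R, against 12% of tested genes. On Day 180 (6 animals) S100A8, S100A12, FPR2, MMP25 and CXCR2 rose, against 8.81% of tested genes, and without the block on animals 2 genes were called. On Day 210 (6 animals) 8 of 10 genes rose, all but S100A8 and S100A9, against 12.8%, and CSF3R, MMP25 and CXCR2 did not overlap between control and Day 210. How many of all tested genes did not overlap was not counted. CSF3R was at 3580 to 5487 CPM on Day 210 and at 1167 to 2624 CPM in the same animals' controls. On Days 240 and 270 (6 animals each) none of the 10 genes was called by edgeR, against 6.76% and 0.00727% of tested genes, although all 10 log2 fold changes were above 0 (1 and 4 genes had an unadjusted p below 0.05, and DESeq2 called 0 and 3). On Day 240 one LD animal, B1503, lay far above the other 4 LD animals, with 623 CPM of S100A8 against 51.8 to 81.2 CPM. S100A12 on Day 270 was at 0.494, 5.66 and 37.8 CPM, against 0.451, 1.15 and 3.28 CPM in the controls, with a log2 fold change of 2.38 (adjusted p = 0.0763). In 1 fit over all samples, which shares one estimate of the spread, all 10 genes were called on both days. That fit called more rises of the 10 genes over the 15 days in general, 70 against 36. Its share of all tested genes is not given here.

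Summed over all late samples, 10 of 10 genes rose in the 14 animals with a control (12 LD, 2 HD), against 14% of tested genes called higher. The median log2 fold change of the 10 genes was 1.43, against -0.13 over all tested genes. S100A12 had the largest change (2.55, SE 0.41, adjusted p = 7.28e-05), followed by FPR2 (2.33), S100A8 (1.99) and S100A9 (1.64). PADI4 (1.43), FPR1 (1.43), MMP25 (1.33), CXCR1 (1.09) and CXCR2 (1.04) were lower in that order, and CSF3R was last (0.90, SE 0.26, adjusted p = 0.0064). Each gap between neighbours in this order was smaller than the larger SE of the pair. MMP25 was higher than in the control in 14 of 14 animals and each other gene in 12 or 13. The animal in which S100A8 was lower, B1504 of the LD group, had the highest control of the 24 (219.03 CPM) and 1 late sample (82.3 CPM). Leaving out any 1 of the 14 animals, or the 2 HD animals, left 10 of 10 genes called. In the deposited log2 values the median of all genes shifted by -0.135 at late time points, and relative to that shift the 10 genes were higher by 1.05 (CSF3R) to 2.45 (S100A12).

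Control and late samples shared a suffix range in 1 of 14 animals. Day 120 was also set against Day 90, a step where earlier results of these data had shown a rise in the number of changed genes. In this step the suffix range was the same in all 14 animals (11 LD, 3 HD). All 10 genes rose between these days, against 7.79% of tested genes. S100A8 went from 5.18, 56.4 and 218 CPM on Day 90 to 73.7, 230 and 450 CPM on Day 120 and was higher in 12 of 14 animals (log2 fold change 1.93, SE 0.36, adjusted p = 0.00317). S100A12 rose by 2.39, S100A9 by 2.02, FPR2 by 1.94 and FPR1 by 1.78. MMP25 rose least, by 1.15 on the log2 scale (SE 0.27, adjusted p = 0.00723), from 161, 552 and 1309 CPM to 542, 1538 and 2371 CPM. In 10 of 14 animals all 10 genes were higher on Day 120 than on Day 90, and in 1 animal at most 2 were. Leaving out any 1 animal left all 10 genes called.

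**Figure D4:**
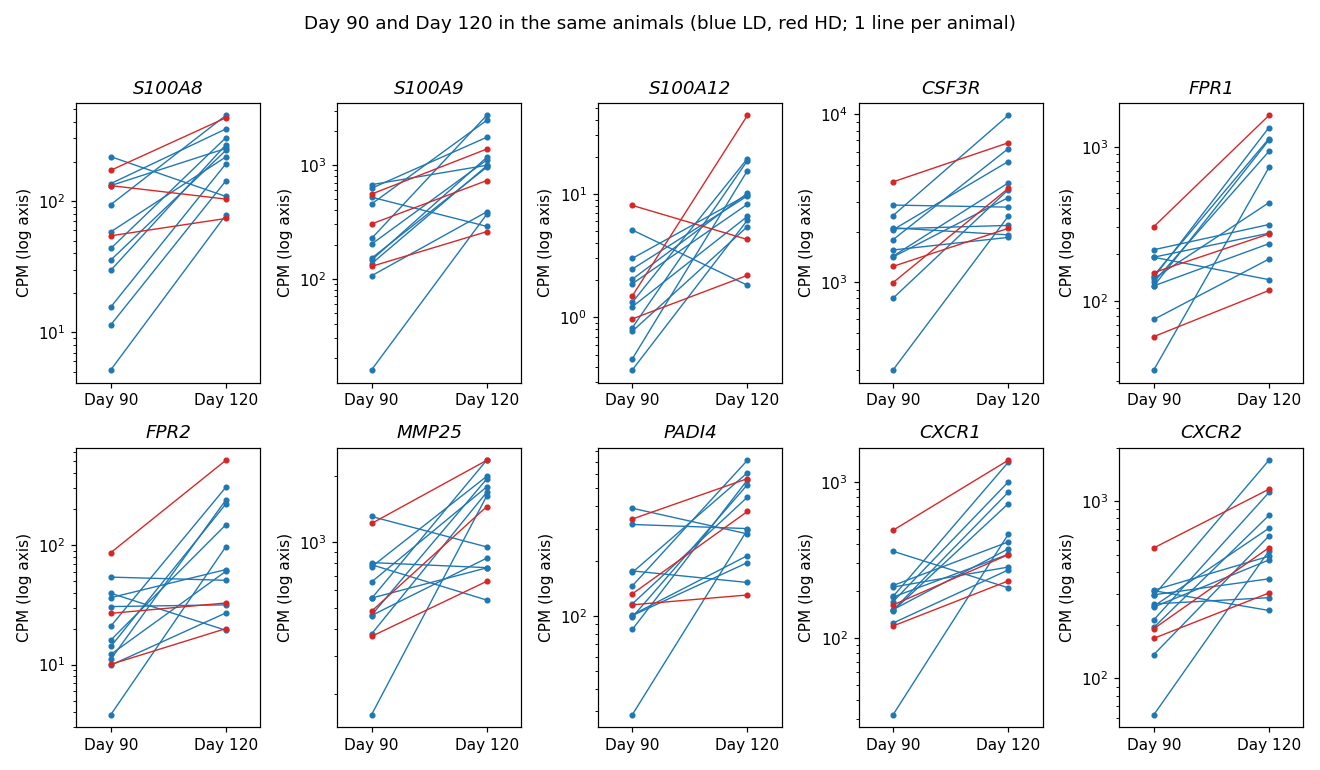
Level of each gene (CPM, log axis) on Day 90 and Day 120 in the same 14 animals, 1 line per animal, LD in blue and HD in red. Lines climb in 11 to 13 of the 14 animals for every gene.

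Over the summed time points and from Day 90 to Day 120, the signed log2 change of the calgranulins lay above that of the other 7 genes in most animals. At late time points the mean log2 change of the 3 calgranulins was 2.07 ± 1.59 (SD, n = 14 animals) and that of the other 7 genes 1.40 ± 1.23, and the first was above the second in 12 of 14 animals. At medium time points the means were 0.88 ± 1.44 and 0.35 ± 0.65 (n = 24), with the calgranulins above in 17 animals. At early time points they were 0.50 ± 1.17 and -0.03 ± 0.67 (n = 24), with the calgranulins above in 16 animals. From Day 90 to Day 120 the calgranulins were above in 10 of 14 animals. By single days, their median log2 fold change was below that of the other 7 genes on Day 30 (-0.18 and -0.06) and Day 210 (0.94 and 1.25). It was above on the other scheduled days. In LD animals alone on Day 60 it was below too (-1.02 and -0.67). The difference between these 2 sets of genes was not tested.

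**Figure D5:**
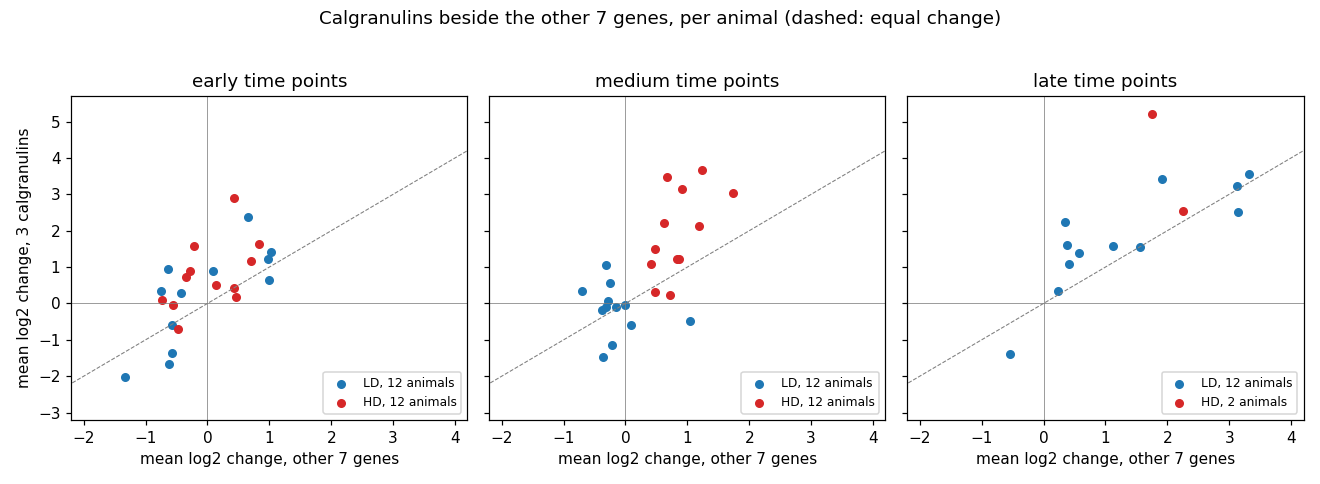
Mean log2 change from the own control of the 3 calgranulins (y axis) against that of the other 7 genes (x axis), 1 point per animal, at early, medium and late time points, LD in blue and HD in red; the dashed line marks equal change. Points lie above the line in 16 of 24, 17 of 24 and 12 of 14 animals.

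At late time points most other neutrophil genes moved in the same direction. Of 20 tested genes of the mature neutrophil list 18 rose and 0 fell, led by IL1R2, a decoy receptor of interleukin 1 (log2 fold change 3.20), the protease MMP9 (2.25) and the chemoattractant PROK2 (2.03). Of 13 granule genes 11 rose and 0 fell, among them the collagenase MMP8 (3.28), the iron-scavenging protein LCN2 (2.703) and PGLYRP1, which binds bacterial cell wall (2.46). Of the 5 tested NADPH oxidase genes, whose product makes superoxide, 3 rose, among them NCF4 (1.14) and NCF1 (0.89).

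Ligands of the receptors and receptors of the calgranulins rose in part. In that list 4 of 7 tested genes rose, including the CXCR1 and CXCR2 ligand CXCL8 (1.43), the calprotectin receptor TLR4 (1.39) and CD33 (1.25). Of 16 genes that act behind the receptors 5 rose, among them SOCS3, the feedback inhibitor of G-CSF signalling (1.93), RGS18, a regulator of G proteins (1.28), and the kinase JAK2 (1.16). Of 7 other S100 genes S100A6 (1.67) and S100P (1.52) were among 3 that rose, and S100A1 fell by 0.87. Of 7 tested relatives of the 10 genes, receptors and enzymes, 2 rose, FPR3 (1.34) and CSF2RB (1.19), and 3 fell, led by CXCR5, a receptor of B cells (-1.46).

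Markers of other blood cells also changed at late time points. All 8 B cell markers fell, with log2 fold changes of -2.52 for CD79B and -2.185 for CD22, and 8 of 11 T cell markers fell, led by CCR7 (-1.36), LEF1 (-1.21) and TCF7 (-1.20). Of 10 monocyte markers 5 rose and 1 fell, and CD163 (1.62), LYZ (1.37) and VCAN (1.13) were higher. All 6 platelet markers rose, among them PPBP (1.12), GP1BB (1.08) and ITGB3 (0.81). Of 5 eosinophil markers 3 rose (SMPD3 1.299, IL5RA 1.28, ALOX15 0.98). Of 9 erythroid markers SLC4A1 rose (1.18) and HBB fell by 1.46. Of 7 glucocorticoid-responsive genes 4 rose, among them ZBTB16 (2.08), DUSP1 (1.45) and PER1 (1.34).

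Summed levels show the size of these shifts. The mature neutrophil sum was 2190, 4260 and 15000 CPM (lowest, median and highest) in controls and 2110, 8540 and 28400 CPM in late samples. The monocyte sum went from 1290, 2400 and 5970 to 2210, 4240 and 7160 CPM, and the T cell sum from 1760, 2610 and 4300 to 386, 1610 and 3090 CPM. B cell sums went from 333, 1410 and 2530 to 47.9, 271 and 912 CPM, and glucocorticoid-responsive sums went from 1200, 1740 and 4110 to 923, 2270 and 17600 CPM. None of the genes in these 4 lists had a median of 0. The part of monocytes, of the loss of lymphocyte RNA and of glucocorticoids in the rise of the 10 genes was not tested.

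From Day 90 to Day 120, 18 of 20 mature neutrophil genes and 9 of 13 granule genes rose as well. In that step 4 monocyte markers rose and 2 fell, 2 of 5 eosinophil markers fell, 8 T cell and 8 B cell markers fell, and 5 of 7 glucocorticoid-responsive genes rose.

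In 8 animals a sample was drawn outside the schedule, between Day 71 and Day 172. Against the preceding draw of the same animal none of the 10 genes was called (0 had an unadjusted p below 0.05, DESeq2 called 0, and 0 of all tested genes were called). S100A8 was already high in the preceding draws, at 103.6 to 469.6 CPM, and at 76.7 to 438.5 CPM in the unscheduled ones, and it was higher in 5 of 8 animals. Whether these draws are the final samples that the methods describe for animals with severe signs is not labelled.

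Changes from control were also compared between females and males. None of the 10 genes was called at early, medium (12 females, 12 males) or late (8 females, 6 males) time points, where 0 had an unadjusted p below 0.05 and DESeq2 called 0 in each. Of all tested genes 0% were called in each of these comparisons as well. The differences, male minus female, ranged on the log2 scale from -0.07 to 0.51 at medium and from -0.18 to 0.63 at late time points. In controls S100A8 was at 61.05 ± 56.96 CPM in females and 39.1 ± 27.1 CPM in males (SD, n = 12 each).

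By their pattern over all samples the genes had different nearest neighbours. For S100A8 the genes outside the 10 with the highest Pearson's r of log2 CPM were SERPINB1 (0.856), RGS2 (0.849), QPCT (0.831), BCL2A1 (0.830) and IFNGR1 (0.828). For CXCR2 they were MEFV (0.932), HLX (0.929), ABHD2 (0.923), NLRP12 (0.921) and MXD1 (0.919). These correlations describe samples that share animals and cell composition, and in the 24 controls alone r was 0.767 to 0.947 for the neighbours of S100A8 and 0.753 to 0.883 for those of CXCR2.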

How the data were processed

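Whole blood of each animal was collected in RNA-stabilising tubes, ribosomal RNA was depleted, and stranded libraries were sequenced as paired reads. The authors trimmed reads with cutadapt 2.10, aligned them with STAR 2.7.6a to Mmul_10 with RefSeq annotation, and counted them per gene with Subread 2.0.1. In the deposited count table, values are raw read counts for 21070 genes and 304 samples. The deposited log2 table holds 16730 genes scaled by the upper quartile, and was used as an alternative only.

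Counts were fitted across all 13751 tested genes with edgeR 4.0.16 in R 4.3.3 (quasi-likelihood test, upper quartile scaling, Benjamini-Hochberg adjustment). The animal was a block, since labels pair each sample with the control of the same animal, and counts of an animal were summed within a window. CPM used scaled library sizes, log2 CPM a prior count of 2, and SE is the log2 fold change over the square root of F. On simulated data with 200 genes changed by a fold of 3, 199 were recovered for the late comparison and 192 for Day 270. False calls numbered 5 and 9. Whether the simulated spread between animals matched the real one is not given here. In the real data 1 of 13751 tested genes was called on Day 270. The simulated counts therefore do not tell how many real changes of that size would be called on Day 270. The alternatives were TMM, DESeq2 1.42.0, no filter, no block, limma 3.58.1 on the log2 table, suffix ranges and leaving out animals. Python 3.11.15 and Matplotlib 3.10.9 drew the figures.

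The 10 genes, all gene lists and the step from Day 90 to Day 120 were chosen with earlier results of these data known. Named were the 10 genes, the 5 nearest neighbours of S100A8 and CXCR2, and up to 3 genes per list with the largest called late change. Some of these list genes are not reported here. Dose comparisons within days, each dose alone and Day 60 against Day 30 were added after seeing the data. Promoters were read from the RefSeq assembly Mmul_10. Replicates are animals, and counting error is covered by the spread between them.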

Additional observations from a re-analysis of the deposited data

Results flagged for a closer look

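In LD animals on Day 240 (5 samples), animal B1503 stood apart from the others in 6 of the 10 genes by Dixon's test. Its levels were 623 CPM of S100A8 (others 51.8 to 81.2), 3310 CPM of CSF3R (others 1580 to 1850), 957 CPM of FPR1, 1580 CPM of MMP25 (others 388 to 539), 519 CPM of PADI4 and 832 CPM of CXCR1. On Day 180, animal B1003 of the LD group was low in S100A12, at 0.588 CPM or 4 counts (others 4.05 to 6.25 CPM). These are 7 of 60 sets of gene and group examined, they come from 2 libraries, and chance alone marks about 1 in 20 sets.

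The change from control differed between doses by the test of the difference. At medium time points HD minus LD was 2.21 for S100A8, 2.002 for S100A9, 2.19 for S100A12, 0.74 for CSF3R, 1.14 for FPR1, 1.53 for FPR2, 0.68 for MMP25, 1.38 for PADI4, 0.97 for CXCR1 and 0.59 for CXCR2 on the log2 scale. On Day 60 it was 3.60 for S100A8, 3.58 for S100A9, 3.43 for S100A12, 1.65 for CSF3R, 2.11 for FPR1, 2.73 for FPR2, 1.66 for MMP25, 2.60 for PADI4, 1.91 for CXCR1 and 1.52 for CXCR2. For the step from Day 30 to Day 60 it was 1.06 for CSF3R, 1.29 for FPR1, 1.85 for FPR2, 1.3 for MMP25 and 1.09 for CXCR1.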

How the results depend on the processing

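The 10 rises at late time points, on Day 120 against Day 90, in HD on Day 60 and for the dose difference on Day 60 were called under every alternative run for them, with 10 genes when any 1 animal was left out at late time points and on Day 120 against Day 90, and 0 for unscheduled draws. The cause of the following changes was not tested, and for most of these alternatives the share of all tested genes called is not given. In the early window 0 genes were called with limma on the log2 values, without the replicate block and in animals of one suffix range. At medium time points limma called 0 higher, and 1 lower in LD. On Day 60 the falls in LD were 0 without the replicate block. In HD from Day 30 to Day 60 the calls were 8 with DESeq2, 7 without the filter and 2 with limma, and the dose difference of this step was called for 9 genes with DESeq2 and 0 in one suffix range. Over 15 days and 10 genes the 36 rises became 70 in 1 fit over all samples and 69 with the suffix range in it, and the 5 falls became 0 in the latter; in animals of one suffix range, over 7 days, 5 rises became 10. Without the replicate block 2 genes rather than 0 were called higher on Day 60 over both doses, and 2 rather than 5 on Day 180. With limma the rises were 3 rather than 5 on Day 180 and 5 rather than 8 on Day 210, and on Day 270 they were 3 rather than 0 with DESeq2 and 1 without the filter. In 1 fit over all samples they were 5 on Day 60, 3 on Day 90 and 10 on Days 240 and 270, each rather than 0, and with the suffix range in it 4 rather than 2 on Day 40, 3 on Days 60 and 90 and 10 on Days 240 and 270. In animals of one suffix range they were 1 rather than 0 on Day 30 and 6 rather than 2 on Day 40. In the animals followed to Day 270, a set chosen after seeing the data, 0 rather than 3 genes rose on Day 6, 0 rather than 2 on Day 40, and 3 rather than 5 fell on Day 21. Signs were compared for the summed time points, each dose alone at medium time points and on Day 60, and Day 120 against Day 90. They were also compared for the dose differences at medium time points and on Day 60. Changes from control on single days over both doses were not among these comparisons. Signs turned for values near 0 and never for a called one: with limma FPR1 -0.0806, FPR2 -0.0355 and PADI4 -0.14 early, MMP25 -0.0557 in LD and CXCR1 -0.00037 at medium; without the replicate block FPR1 -0.0596, FPR2 -0.15 and PADI4 -0.13 early, MMP25 -0.00941 and S100A12 0.0329 in LD and CXCR1 -0.01815 at medium; and PADI4 -0.0677 early in one suffix range. Low counts limit S100A12, with 22 samples under 3 counts.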
